A study of Homo sapiens with 8 samples.

Results

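This account follows 57 developmental transcription factors that are commonly named as Polycomb targets, across cultures of 2 B-cell leukaemia lines treated with an inhibitor of EZH2. The members were taken by name, and every probe set of the deposited table whose single gene symbol in the platform annotation is one of those names was kept, however dim. That rule found 121 of 54675 probe sets, for 55 of the 57 genes. FOXC1 and NEUROD1 had no such probe set and are not analysed here. All 121 symbols were current when compared with RefSeq through the gene identifier.

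RNA from 8 cultures was hybridised to Affymetrix arrays, on which each probe set of short oligonucleotides reports a transcript. Per the labels, the lines are SUP-B8 and NALM-6, both acute lymphoblastic leukaemia. The 4 groups are SUP-B8 with GSK126 at 0.5 uM, SUP-B8 with the vehicle DMSO, NALM-6 with GSK126 at 0.5 uM, and NALM-6 with DMSO, all for 72 hours. Each group holds 2 arrays, which the labels call biological replicates. GSK126 selectively blocks the methyltransferase EZH2. The title of the study names a mutation of EZH2, and whether either line carries one is not given in its labels. As the RNA came from whole cultures, a change in the share of cells that make a transcript and a change in RNA per cell cannot be told apart.

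Polycomb repressive complex 2 (PRC2) methylates lysine 27 of histone H3 through its subunit EZH2, and this mark accompanies silencing of genes that a cell lineage does not use. In many cell types its best known targets are regulators of body plan and organ formation with promoters rich in CpG dinucleotides. Blood cells use few of the factors followed here, and several, such as TLX1, TLX3, MEIS1 and WT1, are known for their activity in leukaemias. Methylation of the histone was not measured here, so the name Polycomb target is background and was not tested in these lines.

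The promoters of the 6 members called with GSK126 that have a RefSeq entry are shown to let their CpG content be seen, with each CG in capitals. They are the RefSeq promoter entries of build GRCh38.p14, 300 bases long, from 250 bases before to 50 bases after a transcript start, in the direction of transcription. MEIS2 has 2 entries and the others 1.
MEIS2, upstream start, chr15:37099057-37099356, minus strand: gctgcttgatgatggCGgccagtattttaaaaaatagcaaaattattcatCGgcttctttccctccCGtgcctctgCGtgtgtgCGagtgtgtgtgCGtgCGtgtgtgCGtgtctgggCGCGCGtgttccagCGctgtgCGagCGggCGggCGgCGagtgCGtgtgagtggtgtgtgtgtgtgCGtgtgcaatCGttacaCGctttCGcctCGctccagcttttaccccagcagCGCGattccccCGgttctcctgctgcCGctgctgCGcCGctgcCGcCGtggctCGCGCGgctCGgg
MEIS2, downstream start, chr15:37098647-37098946, minus strand: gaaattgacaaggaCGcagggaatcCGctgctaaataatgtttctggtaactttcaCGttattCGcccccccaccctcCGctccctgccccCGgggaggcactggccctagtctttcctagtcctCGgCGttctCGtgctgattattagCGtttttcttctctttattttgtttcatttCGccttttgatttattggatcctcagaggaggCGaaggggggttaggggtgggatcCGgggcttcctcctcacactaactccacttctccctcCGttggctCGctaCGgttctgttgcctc
PITX1, chr5:135034179-135034478, minus strand: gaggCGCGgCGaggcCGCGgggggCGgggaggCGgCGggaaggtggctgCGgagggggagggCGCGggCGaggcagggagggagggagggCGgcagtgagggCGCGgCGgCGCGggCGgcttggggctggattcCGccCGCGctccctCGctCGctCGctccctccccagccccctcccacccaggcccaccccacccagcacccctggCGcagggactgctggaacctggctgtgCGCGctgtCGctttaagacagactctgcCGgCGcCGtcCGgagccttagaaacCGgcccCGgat
LHX2, chr9:124011518-124011817, plus strand: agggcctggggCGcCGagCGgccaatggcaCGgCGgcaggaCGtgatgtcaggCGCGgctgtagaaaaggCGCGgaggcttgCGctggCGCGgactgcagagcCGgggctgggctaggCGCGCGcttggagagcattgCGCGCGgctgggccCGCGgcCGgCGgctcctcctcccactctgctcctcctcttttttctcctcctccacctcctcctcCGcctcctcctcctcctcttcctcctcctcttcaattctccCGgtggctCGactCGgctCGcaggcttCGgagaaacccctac
POU4F1, chr13:78603503-78603802, minus strand: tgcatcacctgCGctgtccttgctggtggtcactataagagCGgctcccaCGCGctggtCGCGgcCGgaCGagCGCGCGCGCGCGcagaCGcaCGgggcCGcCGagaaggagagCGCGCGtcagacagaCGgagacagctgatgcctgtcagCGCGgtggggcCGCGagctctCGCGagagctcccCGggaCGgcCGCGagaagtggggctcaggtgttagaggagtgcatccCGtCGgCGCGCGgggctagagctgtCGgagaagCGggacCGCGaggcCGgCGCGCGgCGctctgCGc
DLX1, chr2:172085257-172085556, plus strand: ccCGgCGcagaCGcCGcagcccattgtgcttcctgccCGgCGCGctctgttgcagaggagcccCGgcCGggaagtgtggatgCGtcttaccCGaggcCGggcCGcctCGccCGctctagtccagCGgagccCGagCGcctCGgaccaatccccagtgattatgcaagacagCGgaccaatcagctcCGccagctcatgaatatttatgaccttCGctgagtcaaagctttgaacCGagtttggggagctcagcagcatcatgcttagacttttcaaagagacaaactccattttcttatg
ZIC1, chr3:147409115-147409414, plus strand: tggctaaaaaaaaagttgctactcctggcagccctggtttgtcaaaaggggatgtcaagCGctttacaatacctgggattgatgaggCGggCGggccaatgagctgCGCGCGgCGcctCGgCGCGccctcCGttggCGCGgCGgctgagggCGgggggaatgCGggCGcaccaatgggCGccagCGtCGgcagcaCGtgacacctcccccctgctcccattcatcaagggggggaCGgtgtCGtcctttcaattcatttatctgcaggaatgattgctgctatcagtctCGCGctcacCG

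The motif CG reads the same on both strands, and 96.0% of the 35116 promoters of the table hold at least 1, with a median of 14 and quartiles of 4 and 28. The count was 47 for POU4F1, 35 for PITX1 and for the upstream MEIS2 start, 30 for LHX2, 26 for ZIC1, 23 for DLX1 and 16 for the downstream MEIS2 start. Of all promoters, 97.6% had fewer CG than POU4F1, 85.9% fewer than PITX1, and 52.5% fewer than the downstream MEIS2 start. Entries existed for 39 of the 57 members (68.4%), so a comparison of promoter composition over the whole list is void and is not given.

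Most of the factors were dim in both lines, with or without the inhibitor. No detection calls were used, and each log2 value was therefore set against the median of all probe sets on its own array, which lay between 7.18 and 7.24. Of the 121 probe sets, 86 (71.1%) lay below that median on all 8 arrays, 16 (13.2%) lay above it on all 8, and 19 lay above it on some. Over the whole table the shares were 43.2% below on all arrays and 43.0% above on all. By gene, 33 of 55 had no probe set above the median on any array, and 11 had one above it on all 8. In the groups taken alone, member probe sets above the median on both arrays numbered 27 in SUP-B8 with GSK126 and 29 in SUP-B8 with DMSO. They numbered 22 in NALM-6 with GSK126 and 24 in NALM-6 with DMSO. In that order these are 22.3%, 24.0%, 18.2% and 19.8% of the members. Of all probe sets, 48.8%, 48.6%, 48.9% and 48.7% lay above it on both arrays. The median member probe set lay 0.95 log2 units below the array medians.

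A value above the array median is not by itself a sign of a transcript. Among 24 measured marker genes of T cells, myeloid cells, red cells, fibroblasts, epithelium and nervous tissue, 12 lay below the median on all arrays. Another 9 had a probe set above it on all 8, beta globin (HBB), the red-cell enzyme ALAS2 and the fibroblast gene DCN among them. Not all of the 9 were close to the median. The neural marker TUBB3 averaged 11.65 and 11.30 on its probe sets, and COL1A1 probe set 217430_x_at averaged 9.51. All 6 B-lineage markers measured had a probe set above the median on all 8 arrays, as the labelled lineage would have. They were CD79A, CD79B, PAX5, EBF1, CD22 and BLNK. DNTT, the terminal transferase that NALM-6 is commonly described as expressing, had 13.58 and 13.50 in SUP-B8 with GSK126 and 13.58 and 13.76 in SUP-B8 with DMSO, against 6.73 and 6.56 in NALM-6 with GSK126 and 6.89 and 6.84 in NALM-6 with DMSO (probe set 1566363_at). In the other direction, 4 probe sets of MS4A1, the B-cell surface protein CD20, were lower in SUP-B8 under DMSO, with differences of -5.92 to -5.01 on the log2 scale as deposited. One of them had 8.10 and 7.96 in SUP-B8 with DMSO, against 13.33 and 13.34 in NALM-6 with DMSO (probe set 210356_x_at). Line names below are those of the labels for this reason, and the direction of every difference between the lines, like the line to which a response belongs, depends on those labels. Replicate arrays correlated at r = 0.9977 to 0.9982, and arrays of different lines at 0.9203 to 0.9289.

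**Figure D1:**
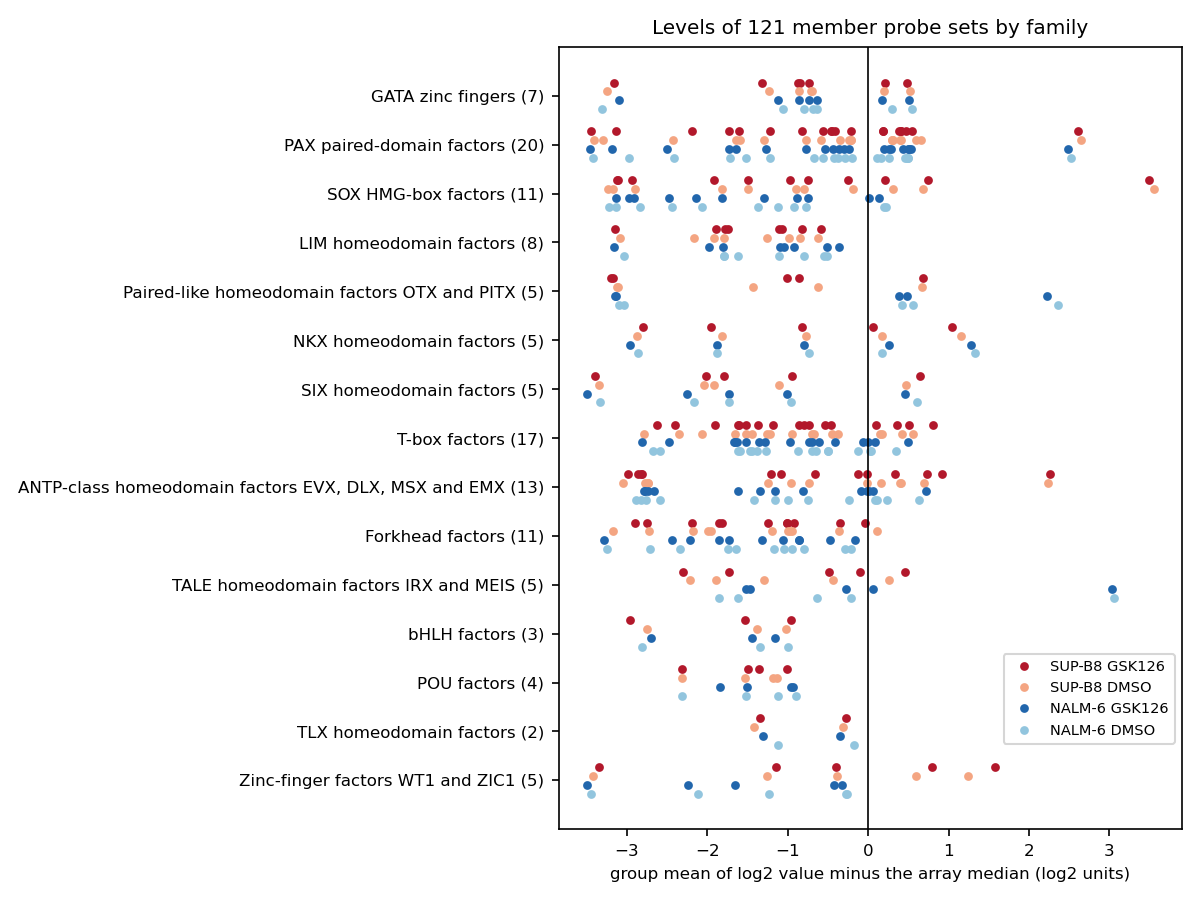
Level of each of the 121 member probe sets as the mean of a group's 2 arrays minus the array medians, in log2 units on the horizontal axis, with families down the page, the number of probe sets in brackets, and groups by colour. Most points lie left of 0, and the few far to the right in 1 line belong to SOX7, PITX1, MEIS2, MSX1 and WT1.

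By family, no LIM homeodomain, forkhead, bHLH, POU or TLX probe set was above the medians on all 8 arrays. The LIM homeodomain factors LHX1, LHX2, LHX9 and ISL1, which act in kidney, forebrain, gonad and motor neurons, had probe set means from 4.10 to 6.65. Those of the forkhead factors FOXA1, FOXA2, FOXC2, FOXD3 and FOXF1, regulators of gut, vessels, neural crest and lung, ran from 4.06 to 7.13. TLX1 and TLX3, homeobox genes switched on by translocations in T-cell leukaemia, had means between 5.91 and 6.93, and all 8 arrays were below the medians for both. The neural bHLH factor OLIG2 and the mesodermal bHLH factor TWIST1 spanned 4.40 to 6.17.

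In the PAX family the probe sets of a gene disagreed for PAX2, PAX3 and PAX8. Those of PAX6, PAX7 and PAX9 lay below the medians on all arrays. Of 20 probe sets for the paired-domain factors PAX2, PAX3, PAX6, PAX7, PAX8 and PAX9, which pattern kidney, muscle, eye, thyroid and skeleton, 8 were above the medians on all arrays and 12 on none. One of 8 probe sets for PAX8, 121_at, averaged 9.77 over all arrays. The 7 others of the same gene averaged between 4.83 and 7.74, 5 of them above the medians on all arrays and 2 on none. Brightness differs between probe sets for reasons other than transcript amount, so levels are not ranked between genes.

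In the remaining families a single probe set or a few lay above the medians. Of 5 for the NKX factors of thyroid, spinal cord, heart and pancreas, that for the heart factor NKX2-5 was above on all arrays (mean 8.40), while NKX2-2 and NKX6-1 were below on all. GATA4 and GATA6, zinc-finger factors of heart and endoderm, each had 1 probe set above on all 8 arrays and 5 others between them below on all. The single probe set of OTX1, a forebrain factor, was above on all arrays (mean 7.77), and both of its relative OTX2 were below on all. SIX2, a factor of kidney progenitors, had 1 of 2 above on all arrays, and the 3 of the forebrain factor SIX3 were below. Of 11 probe sets for the SOX factors SOX2, SOX7, SOX9, SOX17 and SOX21, regulators of stem cells, vessels, cartilage, endoderm and brain, 1 of SOX2 was above on all arrays, and those of SOX9, SOX17 and SOX21 were below on all. Of 17 for the T-box factors TBX2, TBX3, TBX5, TBX15 and TBX20 of heart, limb and skeleton, 1 of TBX2 was above on all arrays and 13 were below on all. Of 13 for EVX1, DLX1, DLX2, DLX5, MSX1, MSX2 and EMX2, which pattern spinal cord, forebrain, face and cortex, 1 of DLX1 was above on all arrays and 7 were below on all.

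TALE homeodomain factors had no probe set above the medians on all arrays, and MEIS2 and IRX5 were above them on some. The POU factors POU3F2 and POU4F1, which act in neurons, had means from 5.01 to 6.21. WT1 was above the medians in SUP-B8 alone, on both of its probe sets, and ZIC1 was below them on all arrays.

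With GSK126, 2 of 121 member probe sets were called higher in SUP-B8 and 0 lower by limma. At an unadjusted p under 0.05 there were 15 of the 121, beside 6145 of all 54613 probe sets. A call here means a Benjamini-Hochberg adjusted p under 0.05 over all 54613 probe sets tested. Of all probe sets, 0.315% were called higher and 0.0165% lower. The 2 were MEIS2 and PITX1, and the share of the members called was 1.65%. The median difference over the members was -0.02 on the log2 scale, as over all probe sets (-0.02), and 112 of the 121 lay within 0.25 of 0.

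MEIS2 encodes a homeodomain cofactor of HOX and PBX proteins in limb and neural crest, and has 1 probe set here. It had 6.68 and 6.72 in SUP-B8 with GSK126, against 5.94 and 5.88 in SUP-B8 with DMSO. The treated arrays were both higher, without overlap, yet all 4 values lay below the array medians. The difference was 0.79 ± 0.07 (log2, SE, adjusted p = 0.00554). Where both groups lie below the medians neither is shown to be above background, and such a difference is given as one between deposited values and not as a fold change. The call ended without SUP-B8 GSK126 replicate 2 (adjusted p = 0.0512) and without SUP-B8 DMSO replicate 2 (adjusted p = 0.0585), over a range of 0.0139 to 0.0585 when each array was left out. In NALM-6, where MEIS2 was far above the medians, it had 10.24 and 10.29 with GSK126 and 10.31 and 10.19 with DMSO. Those groups overlapped, and the difference was 0.02 ± 0.07 (adjusted p = 0.905).

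PITX1, a homeodomain factor of hindlimb and pituitary, had 6.19 on both arrays of SUP-B8 with GSK126, against 5.79 and 5.75 in SUP-B8 with DMSO (probe set 208502_s_at). The treated arrays were higher, again below the array medians throughout, by 0.41 ± 0.06 (adjusted p = 0.0410). This call was lost whichever of the 8 arrays was left out (adjusted p of 0.0709 to 0.209). It was also lost with only the SUP-B8 arrays in the fit (adjusted p = 0.128). The other probe set of PITX1 ran the other way, with 6.39 and 6.28 under GSK126, against 6.41 and 6.75 under DMSO, a difference of -0.24 ± 0.11 that was not called (adjusted p = 0.451). The mean of both probe sets differed by 0.09 (adjusted p = 0.575). In NALM-6 the first probe set had 9.44 and 9.46 with GSK126 and 9.53 and 9.58 with DMSO, a difference of -0.10 ± 0.06 (adjusted p = 0.321).

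In SUP-B8, 13 uncalled member probe sets had an unadjusted p under 0.05 by limma, 9 with higher and 4 with lower values under GSK126. With the 2 called they make 15 of the 121, a share close to that of all probe sets (6145 of 54613). The split by direction or level among all probe sets at that p is not given, so neither is read as a trait of the members. Both groups were above the medians in 3 of the 13, all with higher values. DLX1, a forebrain interneuron factor, had 8.17 and 8.05 with GSK126, against 7.63 and 7.60 with DMSO, a difference of 0.50 ± 0.12 (adjusted p = 0.174, probe set 242138_at), and was called when the variance prior was made robust and dependent on level. One of 4 probe sets of TBX2, a T-box repressor in heart and limb, had 8.001 and 8.005, against 7.68 and 7.57, a difference of 0.38 ± 0.11 (adjusted p = 0.248, probe set 40560_at). WT1, a kidney and gonad factor often expressed in leukaemia, had 8.92 and 8.62, against 8.39 and 8.51, a difference of 0.32 ± 0.13 (adjusted p = 0.417). In each of these 3 the treated arrays lay above both DMSO arrays, which follows largely from their choice by unadjusted p and adds no support. The other DLX1 probe set differed by 0.02. The other probe sets of TBX2 differed by 0.20, -0.06 and -0.17, and the second of WT1 was not among the 13. The other 10 were below the medians in both groups, 6 with higher values (IRX3, LHX2, LHX9, MSX2 and 2 of FOXA1) and 4 with lower values (PAX6, PAX9, EMX2 and POU4F1). Among them IRX3, an Iroquois homeodomain factor, had 7.13 and 7.04, against 6.79 and 6.76 (0.31 ± 0.10, adjusted p = 0.267). PAX6, a factor of the eye, had 6.76 and 6.81, against 6.97 and 7.02 (-0.21 ± 0.07, adjusted p = 0.292). PAX9, a factor of teeth and skeleton, had 6.75 and 6.73, against 6.91 and 7.02 (-0.22 ± 0.08, adjusted p = 0.373).

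**Figure D2:**
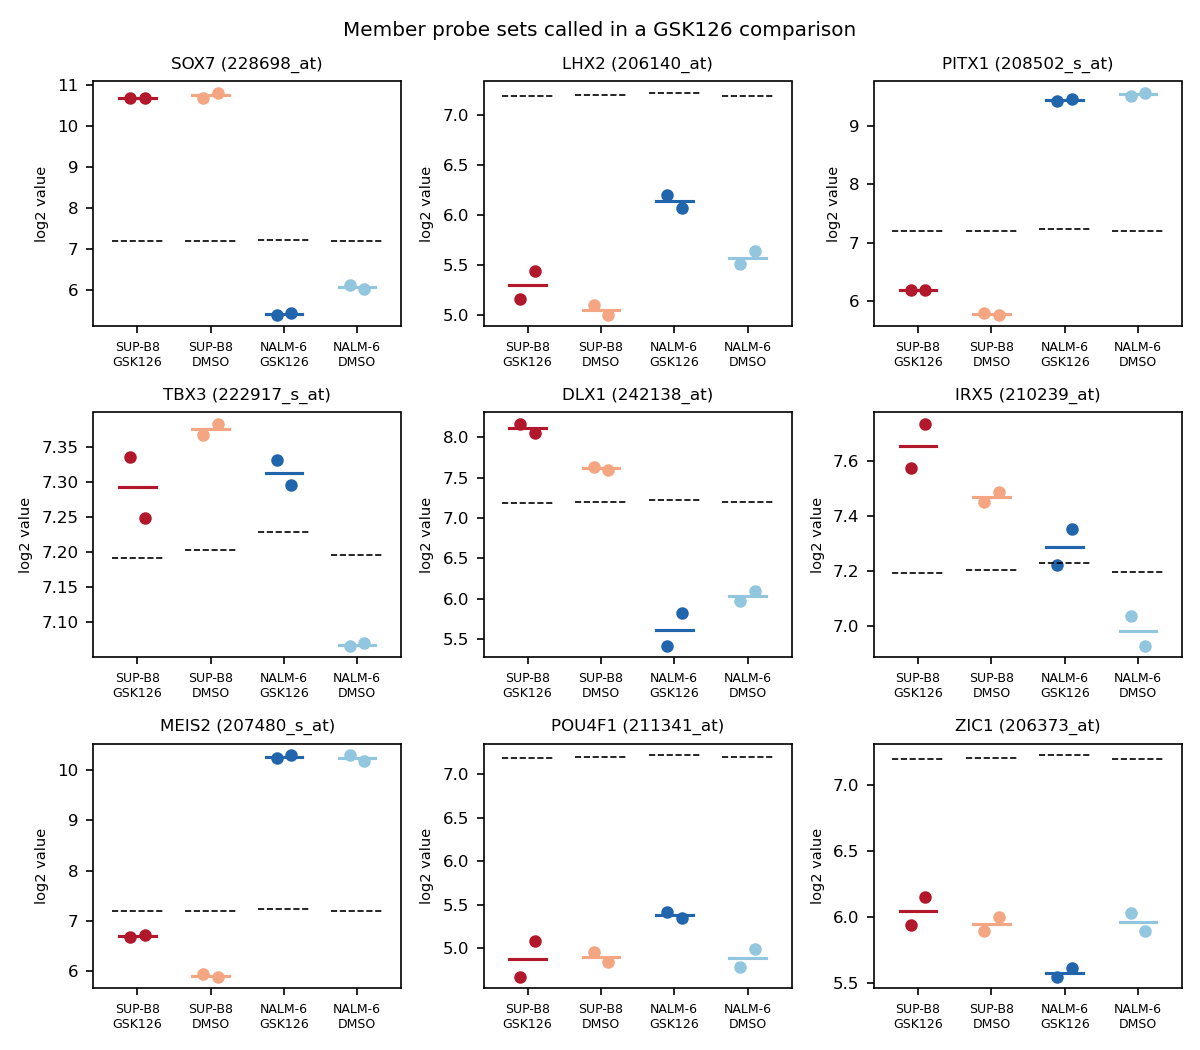
The log2 values of the 9 member probe sets called in either line with GSK126, 1 point per array, with the group mean as a line and the mean array median as a dashed line. The vertical axes differ between panels. All points of LHX2, POU4F1 and ZIC1 lie below the dashed lines, as do those of MEIS2 and PITX1 in SUP-B8 and of SOX7 and DLX1 in NALM-6.

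In NALM-6, 4 member probe sets rose with GSK126 and 3 fell, which is 5.79% of the 121. Of all probe sets, 10.5% were called higher and 10.1% lower, so the share among the members is not above the background. The share called also differs with level. Among the 93 member probe sets whose mean was at or below the array medians 4.30% were called, against 9.02% of all 27090 such probe sets. Among the 28 with a mean above them 10.7% were called, against 31.9% of all 27523. That mean is not the level in NALM-6. SOX7 probe set 228698_at is among the 28 through SUP-B8, and its NALM-6 arrays all lay below the medians. Whether the members differ from other genes of like level was not tested. The median difference over the members was -0.01, beside 0.01 over all probe sets. Within 0.25 of 0 lay 111 of the 121 (91.7%), beside 77.6% of all. By limma, 20 of the 121 had an unadjusted p under 0.05, beside 16827 of all 54613. Of the 20, 13 were not called, 10 with higher and 3 with lower values under GSK126. The split by direction among all probe sets at that p is not given.

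The rises in NALM-6 were those of LHX2, POU4F1, IRX5 and TBX3. LHX2, a LIM homeodomain factor of forebrain and eye, had 6.20 and 6.07 with GSK126, against 5.50 and 5.64 with DMSO. The treated arrays did not overlap the controls, and all lay below the medians. The difference was 0.56 ± 0.10 (adjusted p = 0.00460) and was called in all 8 omissions of an array (adjusted p of 0.00222 to 0.0395). The second LHX2 probe set had 6.94 and 6.79, against 6.74 and 6.56, and its difference of 0.22 ± 0.08 was not called (adjusted p = 0.112).

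POU4F1, a factor of sensory neurons, had 5.42 and 5.35 with GSK126, against 4.78 and 4.99 with DMSO (probe set 211341_at). All lay below the medians, the groups did not overlap, and they differed by 0.50 ± 0.13 (adjusted p = 0.0269). Its call was lost without either NALM-6 GSK126 array or without NALM-6 DMSO replicate 1 (adjusted p = 0.119, 0.0791 and 0.157), within a range of 0.00569 to 0.157 over the 8 omissions. The other POU4F1 probe set differed by 0.18 ± 0.08 (adjusted p = 0.144).

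IRX5, an Iroquois homeodomain factor of heart and retina, moved across the array medians, with 7.22 and 7.35 under GSK126, against 7.04 and 6.93 under DMSO. The arrays did not overlap, and the difference of 0.31 ± 0.08 (adjusted p = 0.0289) is at least 0.09 against the medians. The call was lost without replicate 2 of either NALM-6 group (adjusted p = 0.183 without the GSK126 array and 0.162 without the DMSO array), in a range of 0.0276 to 0.183. One of 7 probe sets of TBX3, a T-box factor of limb, breast and heart, had 7.33 and 7.30, against 7.07 on both DMSO arrays. It differed by 0.25 ± 0.06 (adjusted p = 0.0240), at least 0.12 against the medians. With any of the 4 NALM-6 arrays left out it was not called (adjusted p of 0.0837 to 0.130), nor was it with each array centred on its median (adjusted p = 0.0653). The other 6 TBX3 probe sets differed by -0.11 to 0.14, and the mean of all by 0.04.

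SOX7, ZIC1 and DLX1 fell in NALM-6, in each case between values below the array medians. SOX7, an HMG-box factor of vessels and early blood, had 5.39 and 5.45 with GSK126, against 6.13 and 6.01 with DMSO (probe set 228698_at). The groups did not overlap, and the difference of -0.66 ± 0.07 (adjusted p = 0.000351) was called in all 8 omissions of an array. Its second probe set did not follow, with 4.81 and 4.71, against 4.73 and 4.79. The mean of both differed by -0.33 ± 0.07 (adjusted p = 0.00853).

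ZIC1, a zinc-finger factor of the cerebellum, had 5.54 and 5.61 with GSK126, against 6.03 and 5.89 with DMSO, a difference of -0.38 ± 0.09 (adjusted p = 0.0155, probe set 206373_at). Without either NALM-6 GSK126 array or NALM-6 DMSO replicate 1 it was not called (adjusted p = 0.0907, 0.0506 and 0.0980), within a range of 0.0113 to 0.0980, and its other 2 probe sets differed by -0.04 and -0.02. The mean of all 3 was not called (-0.15, adjusted p = 0.107). DLX1 had 5.41 and 5.82, against 5.97 and 6.10, a difference of -0.42 ± 0.12 (adjusted p = 0.0398). That value was -0.22 without NALM-6 GSK126 replicate 1 (adjusted p = 0.203), and -0.62 without NALM-6 GSK126 replicate 2 (adjusted p = 0.00448). The call was lost in 5 of the 8 omissions, namely without that first array or any of the 4 DMSO arrays of both lines. The other DLX1 probe set lay between 7.72 and 7.97 on all 8 arrays and was not called in any comparison, so the 2 probe sets of this gene disagree, and their mean was not called in NALM-6 (-0.15, adjusted p = 0.205).

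**Figure D3:**
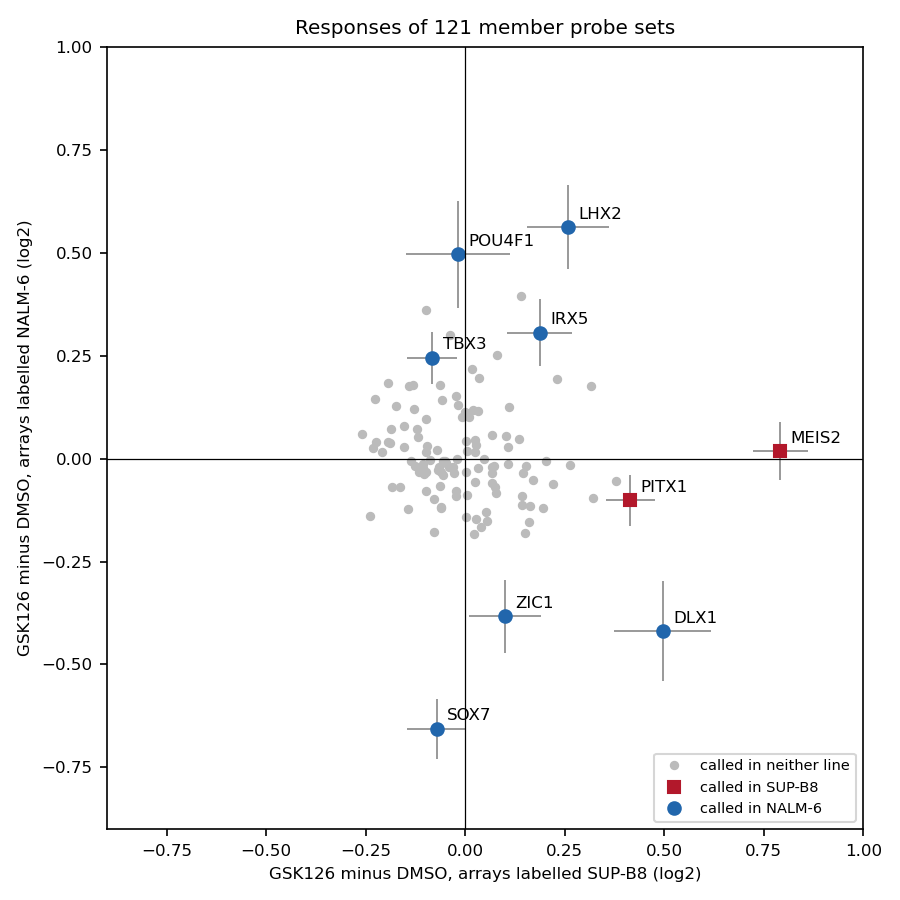
Difference between GSK126 and DMSO in SUP-B8 (horizontal) and in NALM-6 (vertical) for the 121 member probe sets, in log2 units, with SE bars on those called in either line. MEIS2 and PITX1 stand to the right, LHX2, POU4F1, IRX5 and TBX3 above, and SOX7, ZIC1 and DLX1 below. DLX1 also stands to the right, at 0.50, but was not called in SUP-B8. With 2 called in SUP-B8 and 7 in NALM-6 by limma, 0 were called in both. The share of all probe sets called in both lines is not given, so this 0 is not read as a result about the members.

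The responses of the lines differed for 6 member probe sets by limma's interaction term, 5 with the SUP-B8 response above that of NALM-6 and 1 below. The share of the members called was 4.96%, beside 10.9% of all probe sets, of which 5.30% were called above and 5.63% below. The difference was 0.92 ± 0.17 for DLX1 (adjusted p = 0.0107), 0.77 ± 0.10 for MEIS2 (adjusted p = 0.00174), 0.58 ± 0.10 for SOX7 (adjusted p = 0.00837) and 0.52 ± 0.09 for PITX1 (adjusted p = 0.00641). These 4 were called in all 8 omissions of an array, but with the probe sets of each gene averaged SOX7 (0.32 ± 0.10, adjusted p = 0.0679) and PITX1 (0.21 ± 0.09, adjusted p = 0.160) were not. Those of ZIC1 (0.48 ± 0.13, adjusted p = 0.0431) and TBX3 (-0.33 ± 0.09, adjusted p = 0.0493) were not, with ZIC1 called in 1 omission and TBX3 in 0 (adjusted p of 0.0301 to 0.129 and of 0.0773 to 0.159). With quantile normalization repeated the split was 6 above and 0 below, where LHX9 was called and TBX3 was not, and with each array centred on its median it was 5 and 0, without TBX3.

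Under DMSO the lines differed in 28 of the 121 member probe sets, 15 higher and 13 lower in SUP-B8, which is 23.1%. Of all probe sets, 22.9% were called higher and 20.7% lower, together 43.6%, so the share among the members is below the background. With a mean at or below the array medians 19.4% of the members were called, against 23.9% of all such probe sets. With a mean above them the shares were 35.7% and 63.0%. Whether the members differ here from other genes of like level was not tested. The 28 belong to 22 genes, and 0 genes were called in both directions. In size 15 of the 28 differences were under 0.5, and 11 of 28 were between values below the medians in both lines. The same shares among all called probe sets are not given, so these counts are not read as particular to the members. The 8 probe sets of at least 1 log2 unit whose higher line was above the medians belong to SOX7, WT1, MSX1 and DLX1, higher in SUP-B8, and to MEIS2 and PITX1, lower in it.

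**Figure D4:**
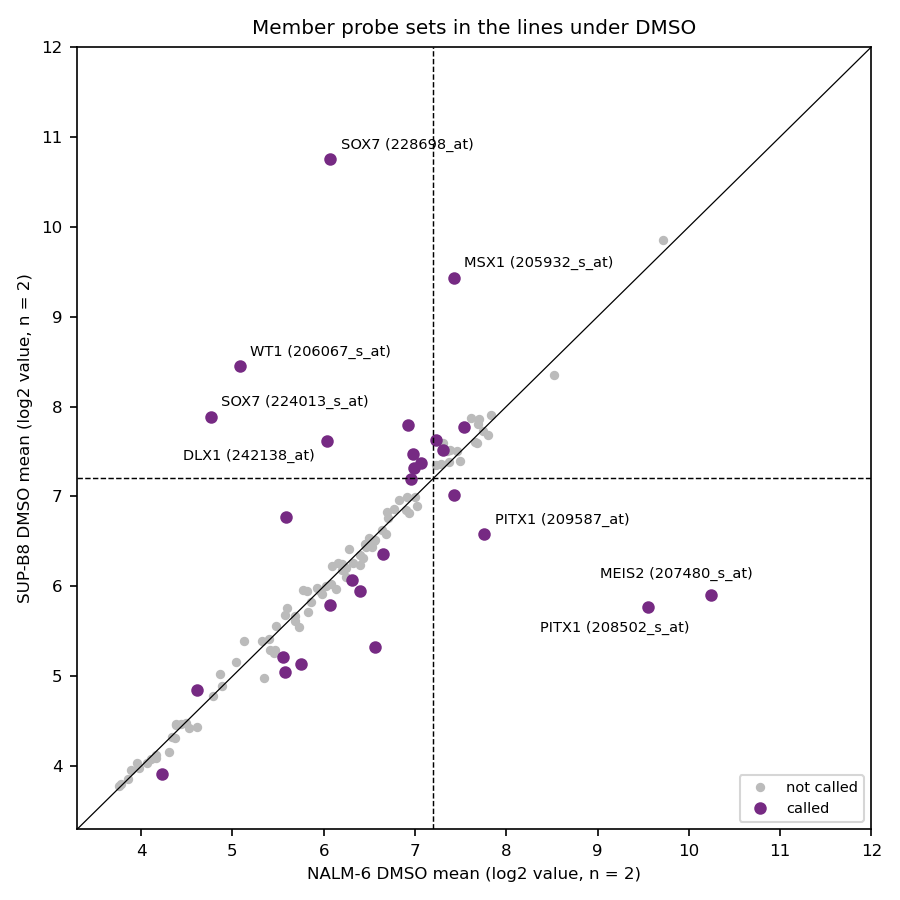
Mean log2 value of each member probe set in SUP-B8 (vertical) and NALM-6 (horizontal) under DMSO, 2 arrays each, with the mean array medians dashed and the line of equal values drawn. Most of the 121 lie near the line of equal values, and the 8 labelled probe sets of SOX7, WT1, MSX1, DLX1, MEIS2 and PITX1 lie far from it.

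SOX7 had 10.69 and 10.82 in SUP-B8, against 6.13 and 6.01 in NALM-6. The NALM-6 arrays lay below the medians, so the difference of 4.68 ± 0.07 (adjusted p = 2.72e-10) is shown to be at least 3.56. Its second probe set had 7.76 and 8.02, against 4.73 and 4.79, at least 0.69 higher. GSK126 left SOX7 in SUP-B8 at 10.68 on both arrays, and that difference of -0.07 ± 0.07 was not called (adjusted p = 0.753).

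WT1 had 8.39 and 8.51 in SUP-B8, against 4.91 and 5.25 in NALM-6 (probe set 206067_s_at), a difference of 3.37 ± 0.13 (adjusted p = 5.86e-08) that is at least 1.25. Its second probe set, with 7.87 and 7.72, against 6.76 and 7.08, was at least 0.60 higher (adjusted p = 0.000577). MSX1, a factor of teeth and facial bone, was the one measured above the medians in both lines, with 9.29 and 9.58 in SUP-B8, against 7.48 and 7.38 in NALM-6. MSX1 was higher in SUP-B8 by 2.01 ± 0.12 (adjusted p = 8.68e-07). Its NALM-6 DMSO values lay close to their array medians of 7.21 and 7.18. NALM-6 GSK126 replicate 2 had 7.10, below its median of 7.24, so the level in NALM-6 is near the limit used here. The second MSX1 probe set, 7.59 and 7.60, against 7.13 and 7.48, differed by 0.29 ± 0.12 and was not called (adjusted p = 0.0714). DLX1 probe set 242138_at was at least 0.42 higher in SUP-B8, where it had 7.63 and 7.60, against 5.97 and 6.10 in NALM-6 (1.58 ± 0.12, adjusted p = 4.94e-06). The other DLX1 probe set, above the medians on all 8 arrays, differed by 0.07 ± 0.09 and was not called (adjusted p = 0.581).

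MEIS2 and PITX1 had the opposite pattern. MEIS2 had 5.94 and 5.88 in SUP-B8, against 10.31 and 10.19 in NALM-6, so it was lower in SUP-B8 by at least 3.04 (-4.34 ± 0.07 as deposited, adjusted p = 3.08e-10). PITX1 had 5.79 and 5.75 in SUP-B8, against 9.53 and 9.58 in NALM-6, lower by at least 2.35 (-3.78 ± 0.06, adjusted p = 3.21e-10). Its second probe set, 6.41 and 6.75, against 7.76 on both arrays, was lower by at least 0.55. IRX3 (1.19 ± 0.10) and MEIS1 (-1.24 ± 0.22), a HOX cofactor of blood stem cells, also differed by over 1 log2 unit, but below the medians in both lines. The DMSO arrays of each line also serve as controls of its response, so these values are not independent of the responses.

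**Figure D5:**
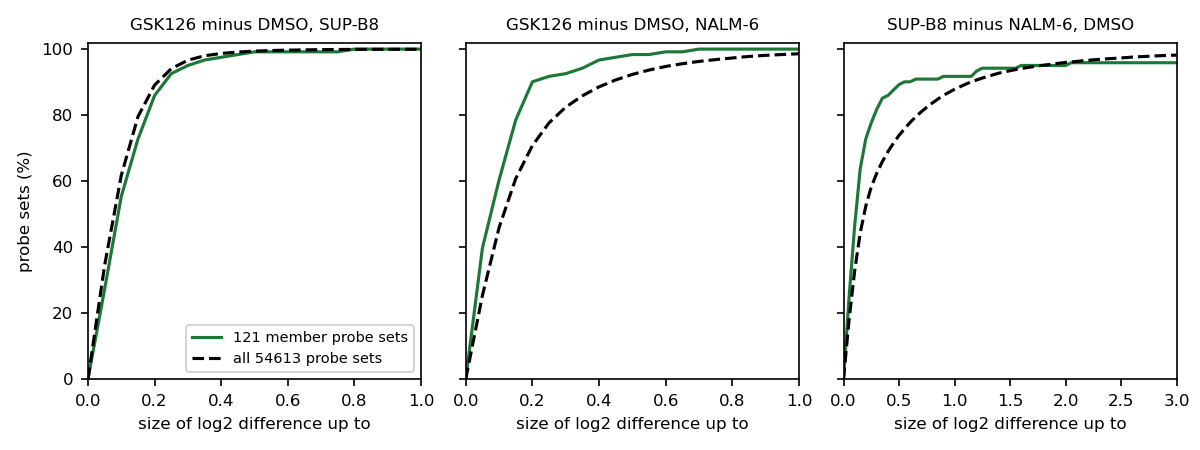
Cumulative share of probe sets, in percent, whose log2 difference is no larger than the size on the horizontal axis, for the 121 members (solid) and all 54613 probe sets (dashed), in SUP-B8 and NALM-6 with GSK126 against DMSO and between the lines under DMSO. At a size of 0.25 the members reach 92.6%, 91.7% and 77.7%, beside 94.1%, 77.6% and 58.2% of all probe sets.

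A further list of developmental factors of the same families, 145 probe sets for 88 genes that are not members, was dim in the same way, with 71.0% below the array medians on all 8 arrays. In SUP-B8 with GSK126, 9 of the 145 had an unadjusted p under 0.05 by limma, beside 6145 of all 54613 probe sets. Of the 145, 1 was called higher and 0 lower (0.690%, beside 0.331% of all probe sets). The one was ZIC2, a relative of ZIC1 active in forebrain, with 7.58 and 7.73, against 6.95 and 6.77 in DMSO arrays, at least 0.45 higher (adjusted p = 0.0137). In NALM-6, ZIC2 was called in the other direction, with 9.80 and 9.83, against 10.49 and 10.43, a difference of -0.64 ± 0.08 (adjusted p = 0.000828). The interaction term for ZIC2 was 1.43 ± 0.12 (adjusted p = 0.000235).

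In NALM-6, 6 of these 145 probe sets rose and 2 fell, which is 5.52%, beside 20.6% of all probe sets called in either direction. GATA3, a T-cell and kidney factor, rose on 2 of 3 probe sets, with 7.44 and 7.26, against 6.35 and 6.74 (probe set 209604_s_at), which is at least 0.15 higher (adjusted p = 0.00164). TFAP2A, an AP-2 factor of neural crest and skin, was above the medians in both groups, with 9.12 and 9.14, against 8.41 and 8.47, and rose by 0.69 ± 0.11 (adjusted p = 0.00212). The remaining calls were rises of SHOX2, POU3F3 and SIM1 and a fall of FOXL1, all below the medians in both groups. The median difference was -0.01 in SUP-B8 and -0.00 in NALM-6.

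The transcript of EZH2 itself was not called in either response, with 11.22 and 11.18, against 11.13 and 11.28 in SUP-B8, and 11.24 and 11.19, against 11.17 and 11.25 in NALM-6 (adjusted p = 0.955 in NALM-6). GSK126 blocks the activity of the protein, so the level of the EZH2 transcript tells nothing of which cultures received it. The brightest probe sets of its PRC2 partners EED, SUZ12 and of its paralogue EZH1 were not called in NALM-6 either (adjusted p = 0.639, 0.0543 and 0.678). One dimmer EED probe set, 210656_at, was lower there by at least 0.75, with 5.83 and 5.84, against 7.83 and 8.12 (adjusted p = 7.96e-06), and 2 of 5 for EZH1 were called lower.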

How the data were processed

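For each of 54675 probe sets and 8 arrays the authors deposited 1 value, treated here as log2. No source states that unit, and it rests on the range of the values. Array medians between 7.18 and 7.24 are those of arrays brought to a common scale before deposit. MAS5 and RMA are named in the submitters' processing notes, and their role and version are not given in the sources used here. Such normalization hides a change shared by most transcripts, and with 2 arrays a group precision is limited.

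Gene names came from the annotation of the platform, in which 41091 had 1 symbol, 1801 several and 11777 were not listed. After leaving out 62 control probe sets, 54613 were tested with limma version 3.58.1 (R version 4.3.3), with 1 mean per group, all 8 arrays and 4 residual degrees of freedom shared by the groups, and no filter on dim probe sets. Adjusted p-values are Benjamini-Hochberg values across every probe set tested. Differences are given ± SE. With 2 arrays against 2, an exact permutation test cannot give a two-sided p under 0.333, so all calls rest on the model. Where 1 group lay above its array medians and the other below, "at least" is the distance of the first group's mean from the array medians of the other. The members and lists were chosen with earlier results of these data known. Named are members called with GSK126 or in the difference of responses, members that differed by at least 1 log2 unit between lines under DMSO with the higher line above the medians, up to 10 related factors a line, and EZH2, EZH1, EED and SUZ12; TBX2, IRX3 and WT1 under GSK126, the other uncalled members with an unadjusted p under 0.05 in SUP-B8, MEIS1, GATA6, LHX9 under other settings, MS4A1 and DNTT were named after their values were seen. Tables were prepared with Python version 3.11.15, and the procedure was tested on simulated data.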

Additional observations from a re-analysis of the deposited data

Results flagged for a closer look

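For 6 member probe sets the responses to GSK126 differed between SUP-B8 and NALM-6 by limma's interaction term, given as SUP-B8 minus NALM-6 on the log2 scale. The difference was 0.92 for DLX1, whose response was 0.50 in SUP-B8 and -0.42 in NALM-6. For MEIS2 it was 0.77, from 0.79 and 0.02, and for PITX1 it was 0.52, from 0.41 and -0.10. For SOX7 it was 0.58, from -0.07 and -0.66, where the SUP-B8 arrays lay far above the array medians and the NALM-6 arrays below. For ZIC1 it was 0.48, from 0.10 and -0.38, and for TBX3 -0.33, from -0.08 and 0.25. ZIC1 lay below the array medians on all 8 arrays. For the other 5, at least 1 of the 4 groups lay below them and at least 1 above. Whether signal near background had a part in these differences was not tested.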

How the results depend on the processing

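The counts of member probe sets called were 2 with GSK126 in SUP-B8, 7 in NALM-6, 6 for the difference of responses and 28 between the lines under DMSO. Testing probe sets above the array median on at least 2 arrays left 34 members and gave 4 in NALM-6 and 17 under DMSO. Arrays of either line count for this filter. The called SOX7 and DLX1 probe sets, below the medians in NALM-6, passed it through SUP-B8. Probe sets bright in 1 line alone pass in the same way, so the filter is no check on dim signal in the other. With 1 probe set per gene 3 of 55 were called in NALM-6 and 18 under DMSO. With the probe sets of each gene averaged 1 was called in SUP-B8, 3 for the difference and 13 under DMSO. These settings test fewer features. With only the SUP-B8 arrays in the fit 1 was called in SUP-B8, and limma's treat with a minimum change of 1.2-fold gave 0, 1, 1 and 12 in the same order. The replicate number as a block gave 1 in SUP-B8, where PITX1 was lost (adjusted p = 0.0669), and 7, 4 and 27 in the others. TBX3 (0.0764) and ZIC1 (0.0527) lost their interaction call with it. Same-numbered arrays of a line deviated together at r = -0.026 in SUP-B8 and 0.004 in NALM-6, so the numbers were not taken to pair cultures. Leaving out each array gave 0 to 1, 4 to 7, 4 to 6 and 20 to 28, where a group with 1 array is assumed to vary like the others. The SUP-B8 count was 0 without SUP-B8 GSK126 replicate 2 and without SUP-B8 DMSO replicate 2, and 1 without any other array. The NALM-6 count was 4 without any 1 of the 4 NALM-6 arrays. All 4 were among the original 7 without DMSO replicate 2, and 3 were in each of the other omissions, where MEIS1, IRX3 or GATA6 was called instead. For the lines under DMSO, 19 to 27 of the original 28 were called when an array was left out. Member probe sets above the limit on all 8 arrays numbered 16 with the median, 3 with the 60th percentile and 30 with the 40th, and 16 to 17 when an array was left out. Of 26 results of named probe sets 0 changed sign, 17 were called in all 8 omissions and 11 in every setting that tested them. Dim probe sets such as those of LHX2, POU4F1 and ZIC1 were not tested under the filter. The cause of these changes was not tested beyond that.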
